A study of Homo sapiens with 2 samples.

Results

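The solute carrier (SLC) genes were taken as every gene whose symbol reads SLC, a family number, the letter A and a member number, or begins with SLCO. This rule was met by 168 of the 10987 genes in the expression table, in 42 families, while the GENCODE 29 annotation holds 346 protein-coding genes named in this way. RNA sequencing was compared between 1 library labelled as THP1 cells, a human monocytic leukaemia line with an MLL rearrangement, exposed for 24 h to the proteasome inhibitor bortezomib (bort), and 1 library labelled as untreated THP1. The dose used for sequencing is not given in the labels, and nothing but the exposure to bort separates the labelled groups. The study asked how bort changes gene expression in this leukaemia. With 1 library per condition no difference below has a replicate check, so no test was possible, and a gene is called higher or lower when its value differed by at least 2-fold between the libraries on the scale of FPKM + 1.

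Solute carriers are membrane proteins that move amino acids, sugars, vitamins, nucleotides and metal ions across the plasma membrane and the membranes of organelles. Plasma membrane carriers set how much cystine, glutamine or glucose enters a cell, and the SLC25 carriers exchange metabolites across the inner mitochondrial membrane. Zinc leaves the cytosol through SLC30 proteins and enters it through SLC39 proteins, and iron leaves the cell through ferroportin (SLC40A1). Inhibition of the proteasome is known to engage the transcription factor ATF4, which induces several amino acid transporters.

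The values are fragments scaled to gene length and library total (FPKM), which allow levels to be compared between genes, and the number of reads behind them is unknown. The 20 most abundant genes took 10.8% of the summed FPKM in the untreated and 21.6% in the bort library. The markers did not match the label of the line. Of 20 erythroid markers 19 were in the table, with a summed level of 5186 FPKM in the untreated and 4497 FPKM in the bort library, and the fetal globin gene HBG1 stood at 1487 and 1536 FPKM. Of 20 monocytic and myeloid markers 7 were in the table, with sums of 25.6 and 65.3 FPKM, and CD14, CSF1R and MPO were not analysed here. The samples are therefore called the library labelled bort and the library labelled untreated, or the bort and untreated libraries for short.

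The solute carriers moved in both directions, with large differences in named members and little change in the middle of the class. In the bort library 16 members (9.52%) were higher by 2-fold, against 8.08% of all genes in the table, and 20 members (11.9%) were lower, against 10.2% of all genes. The remaining 132 stayed within 2-fold. Both shares lay close to those of the whole table. The median log2 fold change was 0.054 over the members and 0.0049 over all genes. The lower members were the more abundant ones: 13 of the 20 lower members reached 10 FPKM in either library, and 3 of the 16 higher members did. That level was reached by 50 of the 168 members and 4576 of the 10987 genes. The same split was not made over the called genes of the whole table, so it is not shown to be particular to solute carriers. Together the members summed to 2239 FPKM (1.07% of the total) in the untreated and 1858 FPKM (0.839%) in the bort library.

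The solute carriers covered a wide range of levels. In the higher of the libraries 5 members reached 100 FPKM, 45 lay between 10 and 100, 100 between 1 and 10, and 18 below 1. A total of 39 members lay below 1 FPKM in at least 1 library, and none was listed at 0. The 5 with the highest mean level were the ADP/ATP carriers SLC25A5 (246.1 FPKM untreated, 264.9 bort) and SLC25A6 (182.3 and 163.1), the citrate carrier SLC25A1 (178.6 and 96.8), the glutamine transporter SLC1A5 (142.0 and 101.2) and the zinc transporter SLC39A7 of the endoplasmic reticulum (130.9 and 71.5). SLC25A5 was the most abundant member in both libraries. The sum of these 5 genes was 879.9 FPKM in the untreated and 697.4 FPKM in the bort library, and none of them differed by 2-fold.

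The amino acid transporters (families SLC1, SLC3, SLC6, SLC7 and SLC38) held the largest rises of the class. Of the 19 listed members 4 (21.1%) were higher and 2 (10.5%) lower, against 8.08% and 10.2% of all genes. The median log2 fold change was 0.40, against 0.0049 over all genes. The GC trend is the dependence of the fold change on transcript GC content over all genes. After its removal 3 members were higher and 1 lower, against 7.22% and 6.33% of all genes. SLC7A11, the cystine/glutamate exchanger that feeds glutathione synthesis (chromosome 4), was at 0.656 FPKM in the untreated and 7.26 FPKM in the bort library (log2 fold change 2.32). SLC38A2, a sodium-coupled carrier of small neutral amino acids (chromosome 12), stood at 12.0 and 53.6 FPKM (log2 fold change 2.07). SLC38A2 thereby passed SLC3A2 and SLC7A5 and became the amino acid transporter with the second highest level in the bort library, after SLC1A5. SLC7A8, a light chain of the large neutral amino acid exchangers, was at 4.64 and 16.7 FPKM (log2 fold change 1.65). SLC38A6, a less studied member of the same family as SLC38A2, was at 1.10 and 3.93 FPKM (1.23).

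Members of the same families were lower. SLC38A5, which carries glutamine, histidine and serine and lies on the X chromosome, was at 51.8 FPKM in the untreated and 13.6 FPKM in the bort library, a log2 fold change of -1.85. SLC38A10 was at 17.4 and 5.64 FPKM (-1.47). SLC38A2 and SLC38A5 thus exchanged places: the untreated library held 51.8 FPKM of SLC38A5 against 12.0 of SLC38A2, and the bort library 13.6 against 53.6. SLC6A19, an apical transporter of neutral amino acids in kidney and gut, was near the floor of the table, at 0.779 and 0.0711 FPKM (-0.73).

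SLC3A2 is the heavy chain that carries several SLC7 light chains to the cell surface. It was at 32.3 FPKM in the untreated and 48.5 FPKM in the bort library, a log2 fold change of 0.57. Its light chains differed among themselves: SLC7A11 and SLC7A8 were higher, SLC7A6, which exchanges cationic for neutral amino acids, was at 4.52 and 7.50 FPKM (0.62), and SLC7A5, the leucine exchanger, was at 49.9 and 31.8 FPKM (-0.63). SLC7A6 was named after its values were seen. In the untreated library SLC7A5 exceeded SLC7A8 by far, and in the bort library SLC7A8 stood closer to it.

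A list of amino acid transporters linked to ATF4 held 9 genes, of which 8 were in the table and SLC7A3 was not analysed here. Of the 8, SLC7A11 and SLC38A2 (25%) were higher and none was lower, beside 8.08% and 10.2% of all genes. The median log2 fold change was 0.30. Beside SLC3A2 and SLC7A5, the list held SLC1A4, a carrier of alanine and serine, at 5.33 and 6.04 FPKM (0.15), SLC7A1, a carrier of arginine and lysine, at 8.23 and 8.62 FPKM (0.06), SLC6A9, a glycine transporter, at 1.74 and 2.74 FPKM (0.45), and SLC1A5, which had a log2 fold change of -0.49. As deposited the list was thus split, with large differences in SLC7A11 and SLC38A2 and differences under 2-fold, in both directions, in the other members. With the GC trend removed the list median was 0.58, and SLC7A11 (1.83) and SLC38A2 (1.57) stayed the only members past 2-fold. SLC3A2 (0.81) and SLC6A9 (0.88) then lay further up, and the falls of SLC7A5 (-0.21) and SLC1A5 (-0.15) were smaller. The summed level of the 8 genes was 252.2 FPKM in the untreated and 259.7 FPKM in the bort library.

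**Figure D1:**
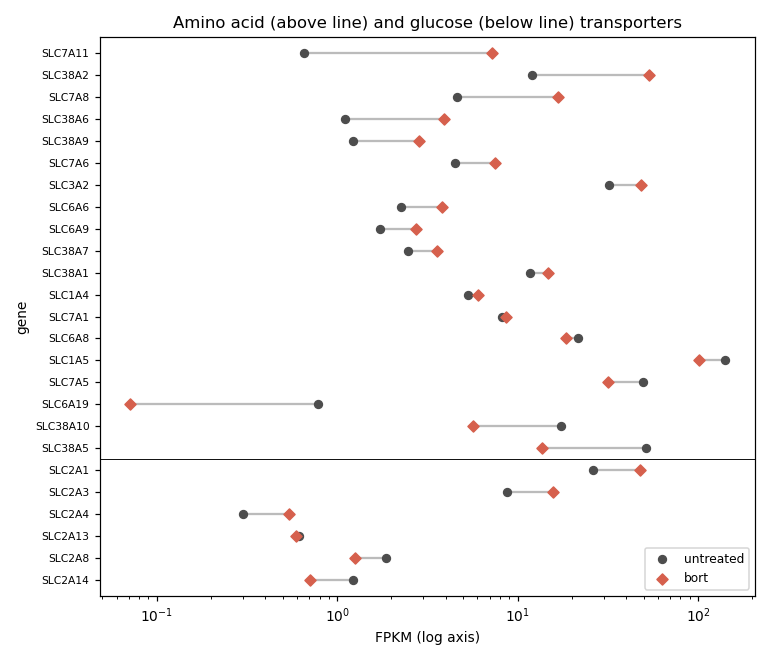
Each row is 1 amino acid or glucose transporter gene, with its FPKM on a log axis, where a line joins the value of the untreated to that of the bort library. SLC7A11 crosses from 0.656 to 7.26 FPKM, SLC38A2 and SLC38A5 exchange places, and both SLC2A1 and SLC2A3 sit further right in the bort library.

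Among the glucose transporters (SLC2) none of the 6 members in the table passed 2-fold, and SLC2A1 did with the GC trend removed. SLC2A1, the glucose transporter of red cells and most cultured cells, was at 26.2 FPKM in the untreated and 47.5 FPKM in the bort library, a log2 fold change of 0.83. SLC2A3, a high-affinity glucose transporter, was at 8.80 and 15.7 FPKM (0.77), and its near-identical copy SLC2A14 at 1.23 and 0.711 FPKM (-0.38), so the division of reads between the pair is uncertain. These genes and the muscle and fat transporter SLC2A4, at 0.30 and 0.543 FPKM, did not reach 2-fold on the FPKM + 1 scale. The others were SLC2A8, a carrier of intracellular membranes (1.86 and 1.25 FPKM, log2 fold change -0.34), and SLC2A13, a myo-inositol carrier (0.614 and 0.592 FPKM, -0.02). The summed level of the 6 genes was 39.0 FPKM in the untreated and 66.2 FPKM in the bort library, nearly all of it from SLC2A1 and SLC2A3.

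The mitochondrial carriers (SLC25) were the largest family, with 39 members listed. Among them 4 (10.3%) were higher and 5 (12.8%) lower, near the 8.08% and 10.2% of all genes. The median log2 fold change was -0.16, and the summed level was 989.4 FPKM in the untreated and 800.9 FPKM in the bort library. At a threshold of 1.5-fold 6 were higher and 12 lower, beside 2282 and 2378 of the 10987 genes in the table. After removal of the GC trend the counts were 2 higher and 7 lower, beside 7.22% and 6.33% of all genes. SLC25A15, the ornithine carrier of the urea cycle, was at 9.94 and 2.70 FPKM (log2 fold change -1.56). SLC25A11, which exchanges oxoglutarate for malate, was at 19.3 and 6.12 FPKM (-1.51). SLC25A22, a glutamate carrier, was at 13.2 and 4.73 FPKM (-1.31). The cofactor carrier SLC25A42, which brings coenzyme A into the matrix, was at 12.1 and 3.44 FPKM (-1.56), and SLC25A39, which carries glutathione, was at 46.7 and 18.7 FPKM (-1.28).

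Just inside 2-fold stood further carriers, named here after their values were seen. SLC25A10, the dicarboxylate carrier, was at 16.6 and 8.06 FPKM (log2 fold change -0.96), and SLC25A1 had a log2 fold change of -0.88. With the GC trend removed their values were -0.34 and -0.21. Another gene overlaps SLC25A10 on the same strand, so its value may hold reads of both. The aspartate/glutamate carriers of the malate-aspartate shuttle, SLC25A12 and SLC25A13, were at 7.34 and 3.56 FPKM (-0.87) and at 21.2 and 10.7 FPKM (-0.93). With SLC25A11, all 3 carrier genes of that shuttle were therefore at lower FPKM in the bort library, 1 of them past 2-fold as deposited. With the GC trend removed SLC25A12 (-1.11) and SLC25A13 (-1.16) were past it too.

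The higher mitochondrial carriers were at lower levels. SLC25A51, which brings NAD+ into mitochondria, was at 3.24 and 9.75 FPKM (log2 fold change 1.34), and another gene overlaps it on the same strand, so its value may hold reads of both. SLC25A43, whose substrate is not settled, was at 1.30 and 4.82 FPKM (1.34), and SLC25A36, a carrier of pyrimidine nucleotides, at 2.34 and 6.30 FPKM (1.13). SLC25A24 exchanges ATP-magnesium for phosphate and was at 3.38 and 8.05 FPKM (1.05). Its relative SLC25A23, which carries the same substrates and was named after its values were seen, lay on the other side, at 19.6 and 9.40 FPKM (-0.99), the member closest to the 2-fold threshold from within.

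The adenine nucleotide and phosphate carriers, which supply the substrates of ATP synthase and export its product, were 4 of 4 in the table, and none passed 2-fold. SLC25A5 and SLC25A6 had log2 fold changes of 0.11 and -0.16. SLC25A4, the ADP/ATP carrier of heart and muscle, was at 9.90 and 6.85 FPKM (-0.47). The phosphate carrier SLC25A3 was at 50.6 and 25.8 FPKM (-0.95) and stood apart from the ADP/ATP carriers.

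Among the zinc transporters all genes lower by 2-fold were importers, in small groups. Of 11 SLC39 importers 1 was higher and 3 lower, with a median log2 fold change of -0.31 and a summed level of 239.5 FPKM in the untreated and 146.6 FPKM in the bort library. Of 9 SLC30 exporters 1 was higher and none lower, with a median of 0.26 and sums of 26.2 and 37.9 FPKM. With the GC trend removed the exporter median changed sign, to -0.10, while that of the importers was -0.28, with 1 importer higher and 2 lower. Of all genes 8.08% were higher and 10.2% lower, or 7.22% and 6.33% with the GC trend removed. Over the 20 zinc transporters the median was -0.075, and it was 0.011 when the libraries were scaled without their 20 most abundant genes, so the family as a whole has no firm direction. The difference between importers and exporters was not tested, and their median GC content also differed, at 55.2% and 41.3%.

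SLC39A3, a zinc importer of the plasma membrane on chromosome 19, had the lowest log2 fold change of all solute carriers, -2.13, with 38.9 FPKM in the untreated and 8.13 FPKM in the bort library. Another gene overlaps it on the same strand, and reads of the pair may not be separable. SLC39A4, the intestinal zinc importer, was at 9.15 and 2.81 FPKM (-1.41), and SLC39A11 at 3.43 and 1.04 FPKM (-1.11). The abundant SLC39A7, which releases zinc from the endoplasmic reticulum, had a log2 fold change of -0.86. SLC39A14, which imports zinc and also iron not bound to transferrin, stood on the other side at 8.48 and 18.6 FPKM (1.05). Its close relative SLC39A8 was at 9.07 and 5.03 FPKM (-0.74) and was named after its values were seen.

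Among the exporters the vesicular transporters of the early secretory pathway were at higher FPKM as deposited. SLC30A6, which works as a partner of SLC30A5 in the Golgi, was at 2.72 and 9.65 FPKM (log2 fold change 1.52). SLC30A5 was at 8.28 and 11.9 FPKM (0.47) and SLC30A7, another Golgi transporter, at 1.19 and 2.74 FPKM (0.78). With the GC trend removed SLC30A6 stayed past 2-fold (1.04), while SLC30A5 (0.09) and SLC30A7 (0.19) lay near 0. SLC30A1, the exporter of the plasma membrane whose transcription responds to zinc, was at 5.91 and 4.94 FPKM (-0.22). The only exporter called at 2-fold was thus SLC30A6, and the plasma membrane exporter lay on the opposite side of 0. SLC30A1 and SLC30A5 were named after their values were seen.

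**Figure D2:**
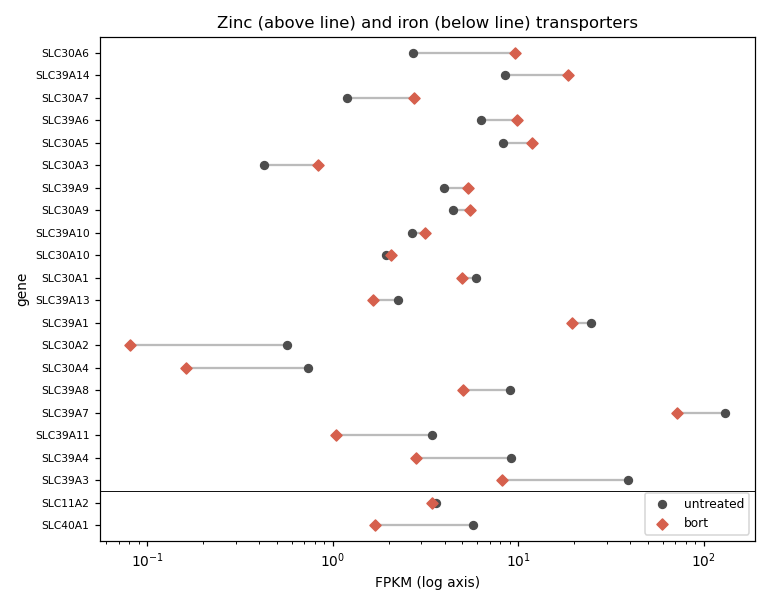
Each row is 1 zinc or iron transporter gene, with its FPKM on a log axis, where a line joins the value of the untreated to that of the bort library. The longest shift to the left among genes above 10 FPKM is SLC39A3, from 38.9 to 8.13 FPKM, and SLC30A6 and SLC39A14 lie further right in the bort library by over 2-fold on the FPKM + 1 scale.

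Both iron transporters in the table, SLC40A1 and SLC11A2, belong to the supply of iron to blood cells. Ferroportin (SLC40A1), the only known cellular iron exporter, was at 5.70 FPKM in the untreated and 1.69 FPKM in the bort library, a log2 fold change of -1.32. SLC11A2, which imports ferrous iron from endosomes, was at 3.59 and 3.43 FPKM (-0.05). The sign of the SLC11A2 value rests on the scaling, since it lies within the shift of the median of all genes, 0.093, when the 20 most abundant genes were left out of the scaling.

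The promoters of zinc and iron transporters were searched for TGCGCNC on either strand, a form of the core of the metal response element. Metal-responsive transcription acts through that element. The string is called the core below, and variants that differ from it at a fixed base were not searched. In the RefSeq promoters (GRCh38.p14), the 250 bases before the gene start held the core in 6 of the 20 zinc and iron transporters that had an entry (30%), and in 16.9% of 27305 promoters of all genes. The stretches of SLC39A3 and SLC40A1 are shown because these genes carry the largest falls on the FPKM + 1 scale among the zinc and the iron transporters; they are written 5′ to 3′ along the gene's strand, with the core or its reverse complement in capitals. The SLC39A3 stretch is chr19:2740188-2740214, minus strand, 138 to 112 bases before the start, and that of SLC40A1 is chr2:189580907-189580982, minus strand, 196 to 121 bases before the start.
SLC39A3: gcttggtggcTGCGCCCgccgctcagc
SLC40A1: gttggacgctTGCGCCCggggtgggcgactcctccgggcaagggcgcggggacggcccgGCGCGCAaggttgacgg
SLC40A1 holds the core at 2 places, once on each strand. The other zinc transporters with the core, SLC30A2, SLC30A3, SLC30A4 and SLC39A6, were all within 2-fold, and SLC30A2 and SLC30A3 also hold it at 2 places. The match is a description of the letters and does not show binding.

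The same promoter windows were searched for 3 other motifs over the 134 members with an entry. The string TGATGNAAT, a form of the amino acid response element bound by ATF4, was in 0 of them and in 0.916% of all promoters. SLC7A11 and SLC38A2 gave no match to this string in this window. With so rare a string few matches could arise among 134 promoters, and elements elsewhere in a gene were not searched. Variants that differ from the string at a fixed base, such as its last, were not searched either, so the search cannot show that the element is absent. A part of ATF4 was not tested. The antioxidant element core TGACNNNGC was in 15.7% of members and 11.0% of all promoters, and TGCGCNC in 21.6% and 16.9%. The GATA element AGATAA was in 3.73% of members and 9.37% of all promoters.

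Outside these families 82 members were in the table, of which 6 were higher and 9 lower, or 8 and 5 with the GC trend removed. The lower ones that reached 5 FPKM included carriers of vitamins. SLC19A1, the reduced folate carrier, was at 12.8 and 2.95 FPKM (log2 fold change -1.81). SLC52A2, a riboflavin transporter, was at 26.4 and 9.35 FPKM (-1.41), and SLC5A6, which carries biotin and pantothenate, at 22.6 and 8.31 FPKM (-1.34). With SLC25A42, which carries coenzyme A, a product of pantothenate, these made 4 lower genes of the 10 in the table on a list of 14 vitamin and cofactor transporters, with SLC25A51 as the only higher one. This list was written after the values had been seen, so its counts, median and sums describe the chosen genes only. Whether vitamin and cofactor transporters as a class were lower was not tested. The median log2 fold change of the list was -0.74, or -0.47 with 1 gene higher and 3 lower after removal of the GC trend. The summed level of the list was 109.7 FPKM in the untreated and 61.4 FPKM in the bort library.

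The other lower members with at least 5 FPKM served different substrates. SLC37A4, which brings glucose 6-phosphate into the endoplasmic reticulum, was at 10.4 and 2.62 FPKM (log2 fold change -1.66). SLC4A2, an exchanger of chloride and bicarbonate, was at 47.1 and 20.3 FPKM (-1.17), and SLC27A4, a fatty acid transport protein, at 28.7 and 12.4 FPKM (-1.14). SLC10A4, a vesicular member of the bile acid transporter family, was at 8.66 and 2.80 FPKM (-1.35). All 6 higher members outside the compared families stayed below 5 FPKM in both libraries. Among them, named after their values were seen, SLC45A3, a sugar transporter known from prostate, was at 0.718 and 4.12 FPKM (1.58), and SLC17A5, the lysosomal sialic acid exporter, at 1.53 and 4.56 FPKM (1.14).

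The list of red cell and haem transporters had 10 of its 12 genes in the table, of which none was higher and 3 were lower, with a median log2 fold change of -0.18. With the GC trend removed 2 were higher (SLC2A1 and SLC48A1) and 2 lower (SLC40A1 and SLC22A4), and the median was -0.03. The shares of all genes were 8.08% higher and 10.2% lower, or 7.22% and 6.33% with the GC trend removed. SLC4A1 and SLC14A1 were not analysed here. The lower ones were SLC40A1, SLC25A39 and SLC22A4, the ergothioneine transporter, at 3.25 and 0.992 FPKM (log2 fold change -1.09). The mitochondrial iron importer SLC25A37 was at 2.69 and 4.04 FPKM (0.45), and SLC25A38, the glycine carrier for haem synthesis, at 29.6 and 35.4 FPKM (0.25). SLC48A1, which moves haem out of lysosomes, was at 4.60 and 8.81 FPKM (0.81), and the nucleoside transporter SLC29A1 at 39.4 and 20.2 FPKM (-0.93). SLC43A1, a carrier of neutral amino acids, was at 13.6 and 10.8 FPKM (-0.30), and SLC2A1 also belonged to the list. The members of the haem pathway inside mitochondria thus stayed within 2-fold, apart from SLC25A39. Of the 19 erythroid markers 5 (26.3%) were lower and none higher, beside 10.2% and 8.08% of all genes. The lower ones included GATA1, a defining erythroid transcription factor, at 161.3 and 48.7 FPKM. The part of these falls in the values of the red cell transporters was not tested. In bulk RNA, fewer cells of a type and less RNA per cell cannot be told apart.

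Among the monocarboxylate transporters (SLC16), which export lactate and import ketone bodies, none of the 5 members in the table passed 2-fold. SLC16A1, the lactate and pyruvate transporter, was at 30.4 and 32.7 FPKM (log2 fold change 0.10). Its chaperone BSG was at 81.7 and 65.9 FPKM (-0.30), and the chaperone EMB was not analysed here. The members SLC16A5 (0.386 and 1.28 FPKM), SLC16A6 (0.324 and 1.28 FPKM) and SLC16A9 (0.923 and 0.274 FPKM) were near the floor of the table. SLC16A13 was at 1.33 and 1.27 FPKM.

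The SLC35A members, nucleotide sugar transporters of the Golgi, also stayed within 2-fold. Other SLC35 genes lie outside the name rule, and those given here were named after their values were seen. SLC35D2 was at 7.31 and 16.3 FPKM (log2 fold change 1.06), past 2-fold, while SLC35C1 (-0.79) and SLC35B2 (-0.75) were lower but within it. SLC35A1, which carries CMP-sialic acid, was at 6.47 and 9.87 FPKM (log2 fold change 0.54), and SLC35A2, which carries UDP-galactose, at 3.77 and 4.85 FPKM (0.30). SLC35A4, whose transcript also carries a translated upstream reading frame, was at 27.4 and 15.5 FPKM (-0.79). SLC35A3 and SLC35A5 were at 0.873 and 1.38 FPKM and at 0.865 and 1.45 FPKM.

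The fold changes of the solute carriers went with the base composition of their transcripts. GC content was taken as the median over a gene's transcripts in GENCODE 29, and Spearman's rho with the log2 fold change was -0.46 over the 168 members, -0.51 over the 39 mitochondrial carriers and -0.47 over 10907 genes, all from the same pair of libraries. The genes were divided at equal counts into low, middle and high GC content. In the low class 9 of 47 members were higher and none lower, in the middle class 5 of 46 were higher and 4 lower, and in the high class 2 of 75 were higher and 16 lower. The higher members had a median GC content of 43.0%, the lower members 59.7% and the members within 2-fold 53.1%. Over all genes the low class had 512 higher and 56 lower genes of 3636, and the high class 123 and 819 of 3636.

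With the GC trend of all genes removed, 16 members were higher and 16 lower (9.52% each), against 7.22% and 6.33% of all genes on that scale. Of the members, 9 were higher and 11 lower on both scales. SLC7A11 (1.83), SLC38A2 (1.57) and SLC7A8 (1.87) were among those that stayed past 2-fold, as were SLC39A3 (-1.74), SLC38A5 (-1.52), SLC25A15 (-1.38), SLC37A4 (-1.36), SLC19A1 (-1.21) and SLC40A1 (-1.20). Among others SLC25A39 (-0.79), SLC25A22 (-0.72), SLC39A4 (-0.72), SLC52A2 (-0.80) and SLC4A2 (-0.66), all of high GC content, and SLC25A24 (0.56) and SLC38A6 (0.75), of low GC content, fell inside it. Among the members that moved outside it were SLC2A1 (1.12), SLC48A1 (1.13), SLC25A3 (-1.03), SLC25A12 (-1.11), SLC25A13 (-1.16) and SLC39A8 (-1.04). The cause of the trend was not tested, and with 1 library per condition a property of the library and the exposure to bort cannot be told apart.

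The remaining genes with SLC symbols, such as SLC35 members with other letters, did not meet the name rule and numbered 21. Of these 2 were higher and 3 lower, with a median log2 fold change of 0.04. Of all genes 8.08% were higher and 10.2% lower. A further list of 25 transporters with other symbols had 21 in the table, of which 1 was higher and 3 lower. The higher one was NPC1, the lysosomal cholesterol exporter, at 4.47 and 13.3 FPKM (1.39), and the lower ones were LETM1, a potassium-proton exchanger of mitochondria, at 33.9 and 11.0 FPKM (-1.54), MTCH2, an insertase of the outer mitochondrial membrane that belongs to the SLC25 fold, at 63.4 and 28.3 FPKM (-1.14), and MFSD2B, a sphingosine 1-phosphate exporter of red cells, at 10.6 and 3.62 FPKM (-1.33).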

How the data were processed

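Total RNA of 2 libraries, 1 per condition, was sequenced. The labels name an Illumina TruSeq kit, whereas the methods name a KAPA stranded kit after selection of poly(A) RNA, and which was used could not be settled. The authors aligned reads with HISAT2 2.0.4 and estimated abundance with StringTie 1.2.3, against GRCh37 per the submitters' processing notes, and deposited 1 FPKM value per gene and library. Taking each gene at its higher library, the lowest value was 0.501 FPKM, and the depth is unknown, so no counting interval is given.

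Fold changes were log2(FPKM + 1) of bort minus untreated, and genes past 2-fold were called. No p-value was computed. The trend of fold change on GC content was removed with a lowess curve of span 0.3 over the 10907 genes with a GENCODE 29 transcript (99.3%), which is on GRCh38 and was matched by gene identifier. A total of 14 members overlap another protein-coding gene on the same strand there. Promoters came from RefSeq (GRCh38.p14), with 134 of 168 members matched. The calculation was checked on simulated data.

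Named genes were, in each family group, the 3 largest rises and 3 largest falls and all past 2-fold, outside them those past 2-fold with at least 5 FPKM in the higher library, the 5 most abundant members, and the members of fixed lists. Other genes named are marked as chosen after their values were seen. The members and lists were chosen with earlier results of these data known. Values were computed in Python 3.11.15 with pandas 2.3.3 and numpy 2.4.6. The lowess curve came from statsmodels 0.14.6, rank correlations from scipy 1.17.1, and plots from matplotlib 3.10.9.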

Additional observations from a re-analysis of the deposited data

How the results depend on the processing

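No paired analysis was possible because bort and untreated cells gave a single library each, which also left no library to omit. The filter on genes under 1 FPKM in either library removed 5 of the 36 members past 2-fold, SLC7A11 with the largest rise among them. Under every alternative of pseudocount, scaling, filter and GC trend that gave a value, the 36 kept their direction. Past 2-fold in all values they had were 20 members (9 higher, 11 lower), of which the filter removed 3 and 17 have a value under every alternative. Of 509 values of 65 named genes under the alternatives, 468 stayed on their side of 2-fold with their sign, 17 moved past it, 11 moved inside it, all with the GC trend removed, and 13 below 2-fold changed sign. The number of higher members was 27 with a pseudocount of 0.1, 29 with none, 32 at 1.5-fold and 2 at 4-fold, and that of lower members was 32 with no pseudocount, 41 at 1.5-fold and 1 at 4-fold. The median log2 fold change of the amino acid transporters was 0.51 with a pseudocount of 0.1 and 0.53 with none. That of the glucose transporters was 0.32, 0.39, 0.77 when genes under 1 FPKM in either library were dropped and 0.38 after removal of the GC trend. That of the iron transporters was -0.88 with a pseudocount of 0.1 and -0.91 with none. The mitochondrial median was -0.053 with upper-quartile scaling and -0.048 when scaled without the 20 most abundant genes, and the zinc median was 0.068 over genes with at least 1 FPKM in both libraries. The cause was not tested. The depth is unknown, so the counting error of the genes below 1 FPKM could not be given.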
